A study of Homo sapiens with 2 samples.

Results

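The arms 1q, 6p, 8q, 17q and 20q are long stretches of the human genome that are often gained in hepatocellular carcinoma (HCC). The TCF12 ChIP-seq peaks that lie on them in Hep3B cells were selected by position alone. A peak belonged to an arm when its summit on hg19 was above 126.6 Mb on chromosome 1 (1q), below 56.8 Mb on chromosome 6 (6p), above 48.9 Mb on chromosome 8 (8q), above 27.3 Mb on chromosome 17 (17q) or above 31.4 Mb on chromosome 20 (20q). Of the 64251 peaks in the table, 12307 (19.2%) lay on the 5 arms. There were 4705 on 1q, 2257 on 6p, 1665 on 8q, 2157 on 17q and 1523 on 20q. Hep3B is an HCC cell line. Its chromatin was precipitated with a TCF12 antibody to give 1 ChIP library, and its genomic DNA without antibody gave 1 input library. With 1 library of each kind and 1 cell line, no value below has a replicate check, no test between arms was possible, and every interval covers counting error only.

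TCF12 is a basic helix-loop-helix protein of the E protein family, which binds the E-box word CANNTG as a dimer. Gains of these arms are among the common chromosomal changes of HCC, and the arms carry well-known growth genes, such as MCL1 on 1q, VEGFA on 6p, MYC on 8q, BIRC5 on 17q and AURKA on 20q. Input DNA is sequenced beside a ChIP library because the reads over a region follow, among other things, how many copies of it the cells hold and how well its sequence can be aligned. The number of copies was not measured here, and its part in the values below was not tested. No hg19 genome or annotation was used, so genes and bases under single peaks are not given.

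The peak caller used 10254561 ChIP tags and 8862145 input tags. It compared the ChIP reads at each summit with a background taken as the highest of 4 levels of input. These were a genome-wide level of 0.763 reads per position, the input fragments over the summit in a window of 161 bp, and the input in windows of 1 kb and 10 kb. A peak at the genome-wide level had no input fragment over its summit, at most 4 in 1 kb and at most 47 in 10 kb. A single input fragment over the summit raised the background to 1, and a 10 kb window had to hold at least 48 input reads to raise it. Each recovered background matched at least 1 of these levels, and where it matched several the narrower window was taken.

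The density of listed peaks differed between the arms, and only 3 of the 5 were denser than the other arm of the same chromosome. Listed peaks numbered 44.1 per Mb on 1q (exact 95% Poisson interval 42.9 to 45.4), 42.0 on 6p (40.2 to 43.7), 40.0 on 17q (38.4 to 41.8) and 48.4 on 20q (46.0 to 50.9). On 8q there were 17.1 per Mb (16.3 to 18.0). Over the rest of chromosomes 1 to 22 and X the density was 21.8 per Mb, so 4 of the arms stood above it and 8q below. Together the 5 arms held 12.7% of the covered length of these chromosomes and 19.3% of their peaks. Lengths ran from the first to the last summit of an arm, less stretches of over 1 Mb without a summit.

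The other arm, cut 7 Mb away from the boundary to leave out the centromere and its flanks, gave the nearest comparison. Density on 1q was 2.47 times that on 1p, which had 17.9 peaks per Mb (interval of the ratio 2.34 to 2.60). Density on 6p was 2.17 times that on 6q, which had 19.3 (2.04 to 2.30). On 20q it was 1.59 times that on 20p, which had 30.5 (1.45 to 1.74). Chromosome 17 went the other way. Its short arm had 47.4 peaks per Mb, and the ratio of 17q to 17p was 0.845 (0.783 to 0.913). On 8q and 8p, with 17.1 and 18.2 peaks per Mb, the ratio was 0.940 and its interval of 0.862 to 1.03 held 1. Without 3 Mb at each end of both arms, the inner ends included, the ratio for 8q was 1.08, so its direction turned with the arm ends. Thus, by peaks per Mb, 17q was sparser than the other arm of its chromosome, and 8q could not be told from its own at this depth.

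**Figure D1:**
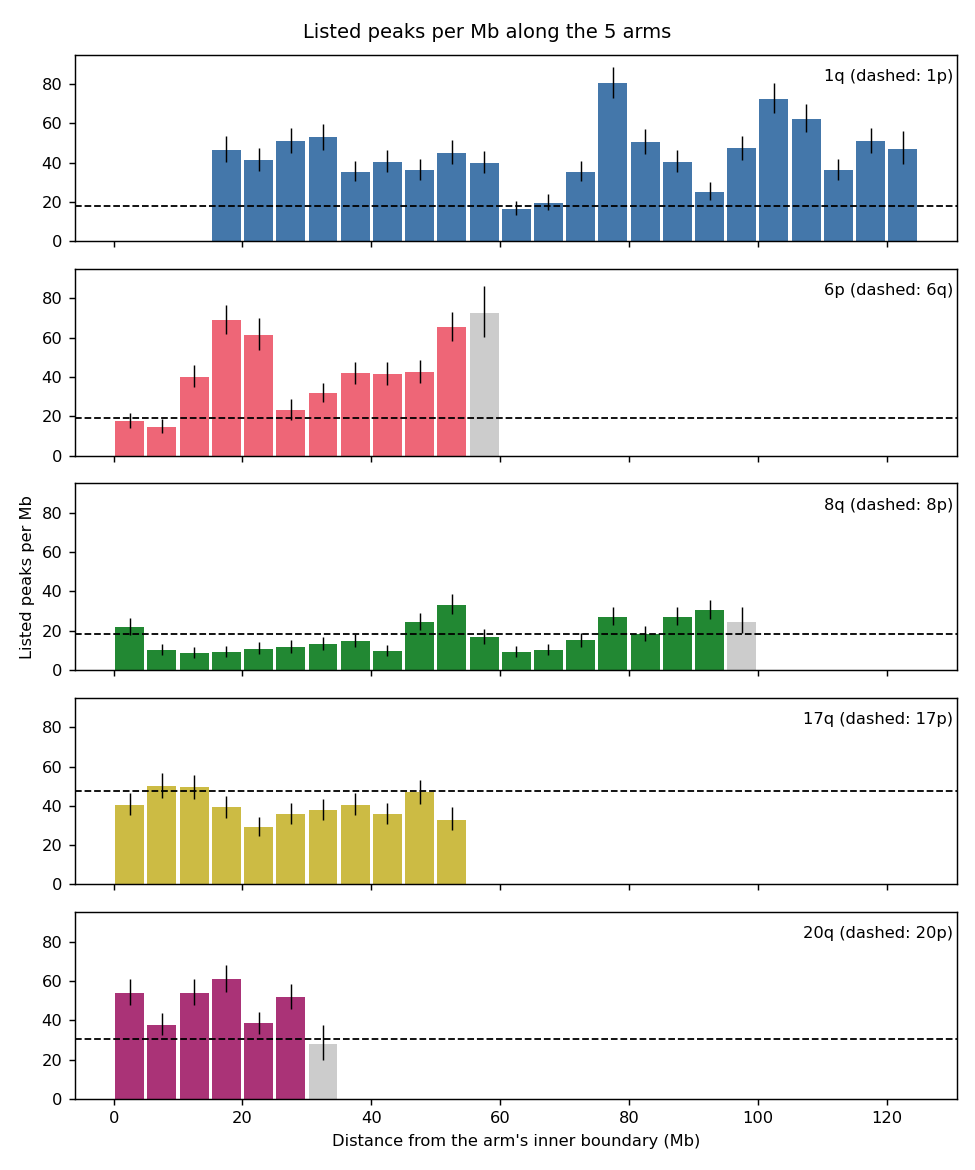
Listed peaks per Mb in 5 Mb windows, plotted by distance in Mb from the inner boundary of each arm, with exact 95% Poisson intervals as error bars and the mean of the other arm as a dashed line. Windows with under 2.5 Mb covered are grey. The coloured windows reach 80.6 peaks per Mb on 1q, 69.2 on 6p and 33.2 on 8q, and the grey window at the outer end of 6p has 72.5.

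The input background was raised more often on the 4 dense arms than on 8q, though not in the order of their densities. Of all listed peaks, 51.8% had a background above the genome-wide level. The share was 60.4% on 1q (exact 95% binomial interval 59.0 to 61.8), 61.9% on 6p (59.8 to 63.9), 65.1% on 17q (63.1 to 67.1) and 57.9% on 20q (55.4 to 60.4). It was 41.8% on 8q (39.4 to 44.2), under the share of the table. Against the other arm of the chromosome, the share was higher by 20.4 percentage points on 1q (interval 17.9 to 22.9), by 18.6 on 6p (15.6 to 21.5) and by 13.6 on 20q (9.27 to 18.0). The difference of 8q from 8p was 3.96 points with an interval of -0.257 to 8.09, and that of 17q from 17p was -1.56 points with an interval of -5.11 to 2.07. Both intervals hold 0, and without 3 Mb at each end of both arms the difference for 17q was 1.84 points.

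The background is bounded below by the genome-wide level, so its medians said little. They were 0.966 reads on 1q, 1.00 on 6p and 17q, 0.821 on 20q, and 0.763, the genome-wide level itself, on 8q. The upper part of the distribution is not bounded in this way. The 90th percentile was 1.93 reads on 1q, 1.77 on 6p, 1.62 on 17q, 1.32 on 20q and 1.25 on 8q, beside 1.05 on 1p, 1.13 on 6q, 1.77 on 17p, 1.13 on 20p and 1.00 on 8p. A background of at least 2 reads was found at 6.73% of the peaks of chromosomes 1 to 22 and X. The share was 9.76% on 1q, 8.77% on 6p, 7.88% on 17q, 4.32% on 8q and 4.40% on 20q, beside 2.99% on 1p, 3.96% on 6q, 7.80% on 17p, 2.5% on 8p and 4.59% on 20p.

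The 10 kb window measures input over a wide stretch and depends least on the summit itself. It set the background of 11.3% of all listed peaks. On 17q it set 19.7% (18.0 to 21.4), on 20q 14.6% (12.8 to 16.5), on 1q 14.3% (13.3 to 15.3), on 6p 12.9% (11.5 to 14.3) and on 8q 6.67% (5.52 to 7.97). The other arms had 23.0% on 17p, 7.56% on 20p, 6.79% on 1p, 3.96% on 6q and 5.12% on 8p. Where this window set the background, it held a median of 67 input reads on 1q, 66 on 6p, 67 on 8q, 68 on 17q and 65 on 20q, and of 63 on 1p, 56.5 on 6q, 63 on 8p, 72 on 17p and 63.5 on 20p. These medians cannot fall under 48, the lowest count that sets a background.

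**Figure D2:**
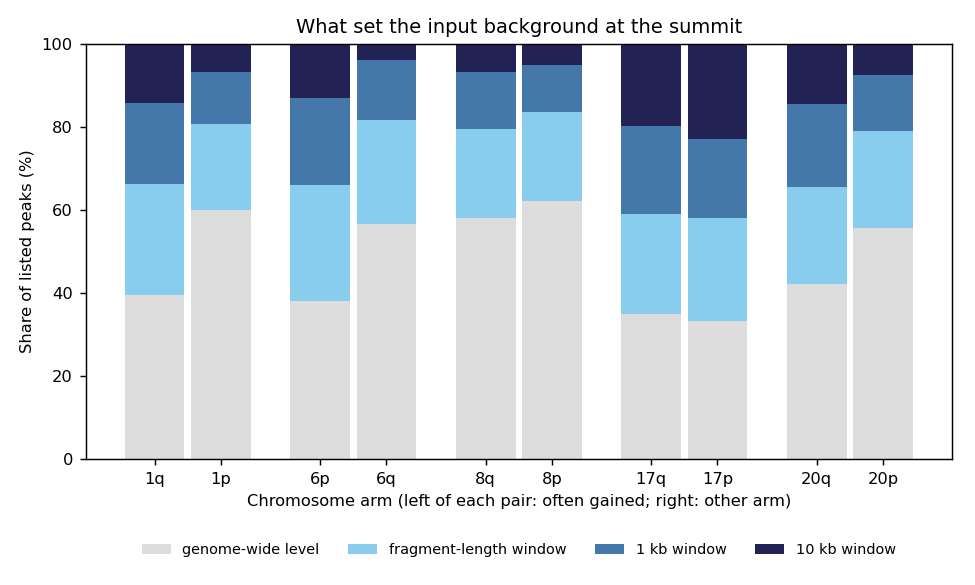
Share of listed peaks, in percent, by the input level that set the background at the summit, for each often gained arm and, to its right, the other arm of the chromosome. The fragment-length window is the one of 161 bp. The lowest part of each bar is the genome-wide level, which holds 39.6% of the peaks on 1q and 60.0% on 1p.

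Split by the level that set the background, the excess of 1q, 6p and 20q over the other arm grew with the width of the window. Peaks at the genome-wide level were 1.63 times as dense on 1q as on 1p (1.52 to 1.75). The ratio was 3.19 for peaks set by the 161 bp window (2.86 to 3.56), 3.82 for the 1 kb window (3.33 to 4.39) and 5.19 for the 10 kb window (4.33 to 6.25). On 6p against 6q the same 4 ratios were 1.46, 2.42, 3.18 and 7.06, the last with an interval of 5.51 to 9.14. On 20q against 20p they were 1.20, 1.60, 2.34 and 3.06. The 3 arms were therefore denser also among peaks at the genome-wide level, by 1.20 to 1.63 times. That level, 0.763 reads, was set with a mouse genome size, and the human size would give 0.528. Peaks at the level can thus still have input above the genome average, and the split cannot separate density from input. For 8q the 4 ratios ran from 0.880 to 1.22, and only the lowest, for peaks at the genome-wide level, had an interval without 1 (0.788 to 0.985). For 17q they ran from 0.722 to 0.947, and the lowest was that of the 10 kb window (0.613 to 0.854).

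**Figure D3:**
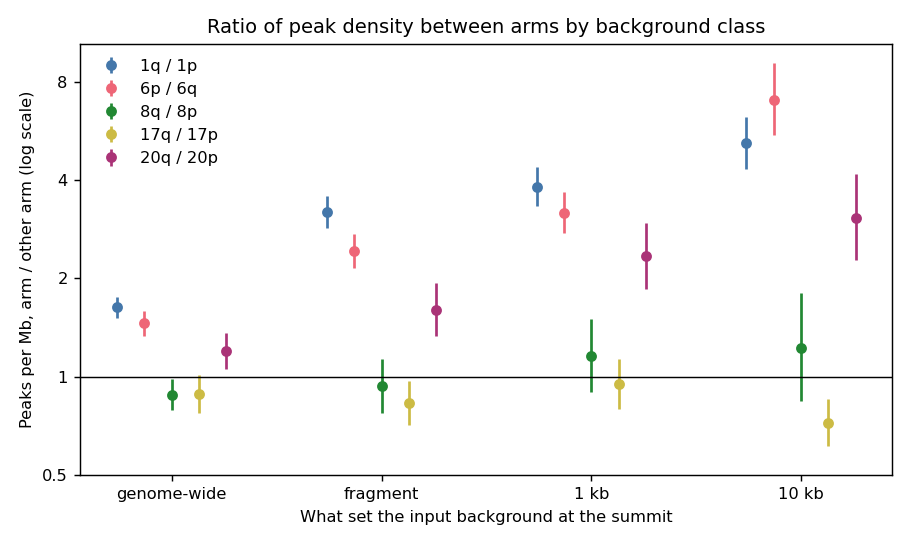
Ratio of peaks per Mb between each often gained arm and the other arm of its chromosome, on a log axis, for peaks grouped by the input level that set their background (fragment: the 161 bp window). Bars are exact conditional 95% intervals, for counting error only, and the line marks a ratio of 1. The 10 kb ratios reach 7.06 for 6p and 5.19 for 1q, and stay at 1.22 for 8q and 0.722 for 17q.

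Reads at the summit followed the background, as the cutoff requires. A listed peak at the genome-wide level had at least 3 ChIP reads, but peaks with a background of 1 had at least 4 and those with a background of 2 at least 6. The median was 5 reads on each of the 5 arms. At least 7 reads were found at 13.1% of all listed peaks. The share was 18.7% on 1q (17.6 to 19.8), 16.6% on 6p, 15.4% on 17q, 11.2% on 20q and 9.01% on 8q (7.68 to 10.5). The other arms had 6.55% on 1p, 7.19% on 6q, 16.3% on 17p, 9.18% on 20p and 5.26% on 8p. Within the peaks at the genome-wide level, where the cutoff was the same everywhere, 45.2% of 1863 peaks on 1q had at least 5 reads (43.0 to 47.5) against 35.8% of 1282 on 1p (33.2 to 38.5). These intervals do not overlap. On 6p and 6q the shares were 40.8% and 40.0%, on 8q and 8p 39.5% and 35.5%, on 17q and 17p 38.6% and 43.8%, and on 20q and 20p 39.8% and 36.6%, with overlapping intervals in each pair.

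Listed peaks were short on all 5 arms. The median length was 207 bp on 1q, 210 bp on 6p, 198 bp on 17q and 202 bp on 20q, against 184 bp on 8q. It was 172 bp on 1p, 193 bp on 6q, 177 bp on 8p and 196 bp on both 17p and 20p. The share at the minimum length of 161 bp was 31.3% on 1q and 40.7% on 8q. The median distance between neighbouring summits was 11.4 kb on 1q, 12.1 kb on 6p, 14.4 kb on 17q, 11.2 kb on 20q and 29.3 kb on 8q. Next summits closer than 1 kb made up 10.1% of the distances on 1q, 7.62% on 6p, 4.51% on 8q, 5.52% on 17q and 7.16% on 20q, against 2.57% on 1p, 4.15% on 6q, 3.03% on 8p, 5.83% on 17p and 6.35% on 20p. Listed peaks covered 1.08% of the length of 1q, 1.03% of 6p, 0.923% of 17q, 1.15% of 20q and 0.384% of 8q.

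Along each arm the density was uneven. Windows of 5 Mb were counted outward from the inner boundary, and 69 of them had at least 2.5 Mb covered. The same windows laid over chromosomes 1 to 22 and X numbered 541, with a median of 19.2 peaks per Mb, an upper quartile of 32.8 and a 90th percentile of 47.2. These include the arms themselves. Of the 69 arm windows, 53 were above the median and 16 above the 90th percentile. All 11 windows of 17q and all 6 of 20q were above the median, as were 21 of 22 on 1q, 9 of 11 on 6p and 6 of 19 on 8q.

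On 1q, the summits began at 142582813, past a long stretch without any. The densest window was from 201.6 to 206.6 Mb, with 403 peaks or 80.6 per Mb (72.9 to 88.9), above 99.4% of the windows of the genome. The next were from 226.6 to 231.6 Mb with 72.6 per Mb and from 231.6 to 236.6 Mb with 62.4. In windows of 2 Mb, the density rose from 25.5 per Mb between 198.6 and 200.6 Mb to 86.0 in the next and 93.5 in the one after. The sparsest windows were from 186.6 to 191.6 Mb with 16.4 per Mb, from 191.6 to 196.6 Mb with 19.6 and from 216.6 to 221.6 Mb with 25.2. The share with raised background was 71.0% in the densest window and 46.3% and 44.9% in the 2 sparsest. It was highest in the 3 innermost windows, at 77.5%, 77.3% and 82.7%, where the density was 46.6, 41.4 and 50.8 per Mb. In the outer 3 Mb of 1q it was 60.9%, against 60.4% in the rest of the arm.

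On 6p, density rose sharply away from the centromere. The 2 innermost windows were the sparsest, with 17.4 and 14.6 peaks per Mb. In windows of 2 Mb, the step lay between 44.8 to 46.8 Mb, with 16.0 per Mb, and 42.8 to 44.8 Mb, with 59.5. The densest windows were from 36.8 to 41.8 Mb with 69.2 per Mb (62.1 to 76.9), from 1.8 to 6.8 Mb with 65.4 and from 31.8 to 36.8 Mb with 61.6. The last stretch, under 1.8 Mb, had 1.71 Mb covered and 72.5 per Mb (60.3 to 86.4), and the outer 3 Mb had 63.9 against 40.7 in the rest of the arm. The window from 26.8 to 31.8 Mb was the third sparsest, with 77 peaks or 23.2 per covered Mb. In windows of 2 Mb, 72 of these peaks lay between 26.8 and 28.8 Mb. Between 28.8 and 30.8 Mb there were 2 peaks, and between 30.8 and 32.8 Mb there were 6. Part of the major histocompatibility complex, the HLA genes of antigen presentation, lies in the window, so 23.2 is not the density of that complex. The table as used here held no summit between 29083406 and 30760738 or between 32075893 and 33262914. Both stretches were taken off the length, and whether peaks lie in them was not analysed here. The second lies in the dense window from 31.8 to 36.8 Mb, whose 61.6 per Mb refers to 3.81 Mb covered. The table also names alternative haplotypes of chromosome 6, which the rule left out, with 63 peaks. How reads shared between these haplotypes and 6p were treated was not tested.

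On 8q, density was low over most of the arm. From 53.9 to 93.9 Mb, 8 windows in a row had between 8.60 and 14.6 peaks per Mb. The sparsest were from 58.9 to 63.9 Mb with 43 peaks or 8.60 per Mb (6.22 to 11.6), and from 63.9 to 68.9 Mb and from 108.9 to 113.9 Mb with 9.20 each. The densest were from 98.9 to 103.9 Mb with 33.2 per Mb (28.3 to 38.7), from 138.9 to 143.9 Mb with 30.4 and from 133.9 to 138.9 Mb with 27.2. The outer end of 8q stood apart by its background more than by its density. In windows of 2 Mb, the share above the genome-wide level was 8.70% from 136.9 to 138.9 Mb, 37.5% in the next window outward, and then 73.7%, 82.8% and 100% of the 32 peaks in the last. In the outer 3 Mb of the arm, 94.4% of 72 peaks had raised background (86.4 to 98.5), against 39.4% of the other 1593 (37.0 to 41.9). The densities were 24.2 and 16.9 per Mb.

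On 17q and 20q, density varied less than on the other arms. The coefficient of variation over 5 Mb windows was 0.167 on 17q, 0.189 on 20q, 0.341 on 1q, 0.457 on 6p and 0.473 on 8q. The densest over the median window put 20q lower, at 1.15 against 1.28 on 17q. The densest windows of 17q were from 32.3 to 37.3 Mb with 50.2 peaks per Mb (44.2 to 56.8), from 37.3 to 42.3 Mb with 49.4 and from 72.3 to 77.3 Mb with 47.0. The sparsest of 17q was from 47.3 to 52.3 Mb with 29.2 (24.7 to 34.3), followed by the outermost window, from 77.3 Mb on, with 33.0. The windows from 52.3 and from 67.3 Mb both had 36.0. The sparsest window hid a step. In windows of 2 Mb, density was 60.0 per Mb between 47.3 and 49.3 Mb and 8.50 between 49.3 and 51.3 Mb, where the share with raised background went from 75.0% to 35.3%. In the outer 3 Mb of 17q, 90.5% of 95 peaks had raised background (82.8 to 95.6), against 64.0% in the rest of the arm. An alternative haplotype of chromosome 17 held 73 further peaks and its unplaced scaffolds 17, which the rule left out.

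On 20q, the densest windows were from 46.4 to 51.4 Mb with 61.0 peaks per Mb (54.3 to 68.2), and from 41.4 to 46.4 Mb and from 31.4 to 36.4 Mb with 54.0 each. The sparsest were from 36.4 to 41.4 Mb with 37.8, from 51.4 to 56.4 Mb with 38.4 and from 56.4 to 61.4 Mb with 51.8. The outermost window, from 61.4 Mb on, had 1.51 Mb covered and 42 peaks or 27.8 per Mb (20.01 to 37.5), the only window of the arm under the 30.5 of 20p. In the outer 3 Mb, 87.8% of 98 peaks had raised background (79.6 to 93.5), against 55.9% in the rest of the arm, while density was lower there, 32.8 against 50.1 per Mb. The ends of 8q, 17q and 20q thus shared a high background, and those of 1q and 6p, with 60.9% and 64.4%, were close to the rest of their arms.

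**Figure D4:**
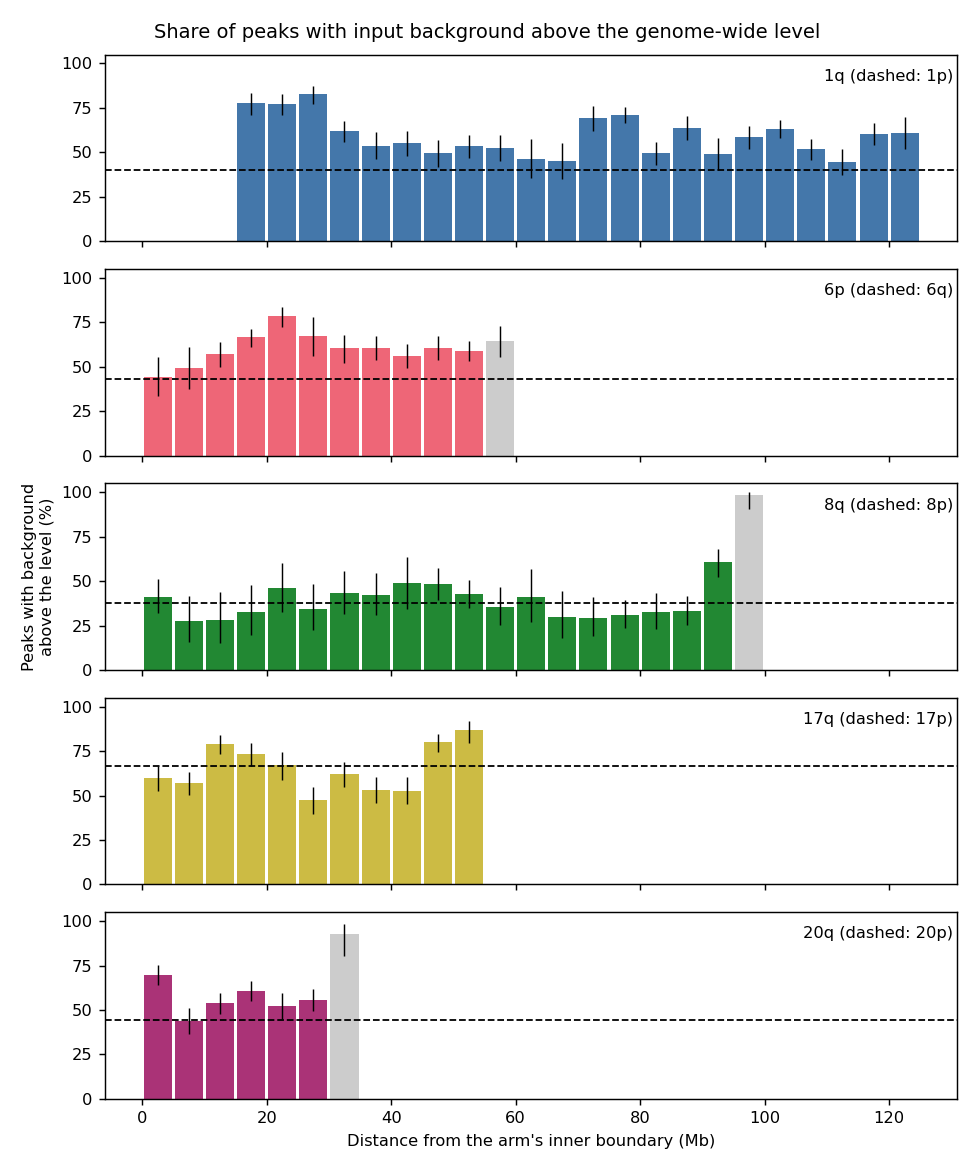
Share of listed peaks with input background above the genome-wide level, in percent, in the same 5 Mb windows of each arm, with exact 95% binomial intervals as error bars and the share on the other arm as a dashed line. Windows with under 2.5 Mb covered are grey. Within 1q the share is highest in the 3 inner windows, at up to 82.7%, and within 8q, 17q and 20q at the outer ends. It also reaches 78.3% on 6p between 31.8 and 36.8 Mb and 80.0% on 17q between 72.3 and 77.3 Mb.

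Over the windows, density and background went together to different degrees. Spearman's rho between peaks per Mb and the share with raised background was 0.73 over the 541 windows of the genome. Within the arms it was 0.52 on 1q (22 windows), 0.55 on 6p (11), 0.29 on 8q (19), 0.04 on 17q (11) and 0.71 on 20q (6). Pearson's r was 0.73 over the genome and 0.46, 0.62, 0.36, 0.11 and 0.71 on the arms in the same order. These are descriptions. All windows share both libraries, both measures come from the same listed peaks, and base composition was not examined.

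**Figure D5:**
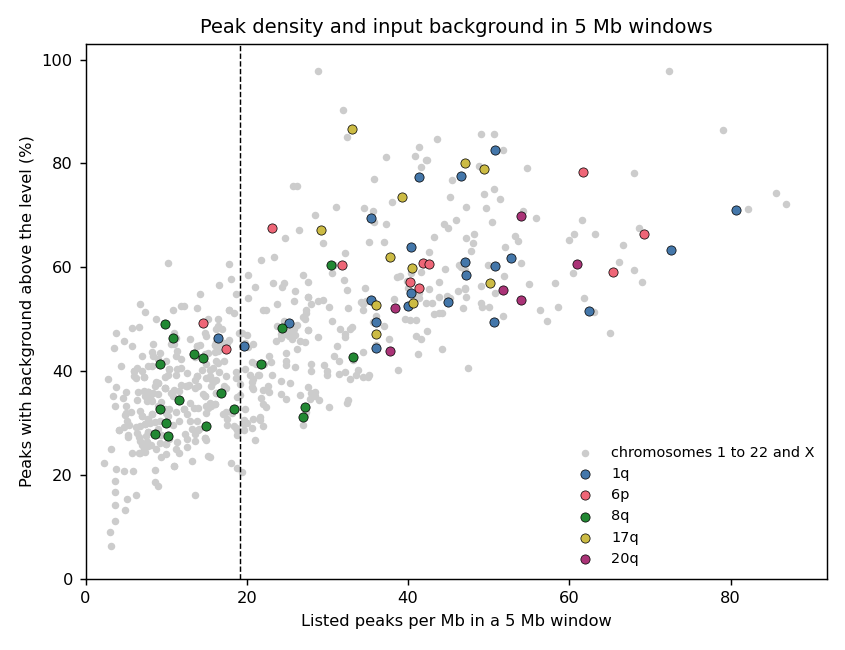
Listed peaks per Mb against the share of peaks with background above the genome-wide level, in percent, in 5 Mb windows. Grey points are the 541 windows of chromosomes 1 to 22 and X, coloured points the 69 windows of the 5 arms, and the dashed line the median density of 19.2. Most points of 8q lie left of the line and all those of 17q and 20q to its right.

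Few peaks of the arms had a listed q under 1. A −log10 q above 0, which means no more than that, was reached by 41 of the 12307 peaks. This was 0.333% (0.239 to 0.452), against 0.346% of the whole table. The share was 0.301% on chromosomes 1 to 22 and X, and 0.135% on the 5 other arms (0.0617 to 0.256). Among the 41, the −log10 q ran from 0.0175, on 8q, to 8.12, on 20q. There were 21 on 1q, 7 on 6p, 4 on 8q, 4 on 17q and 5 on 20q. On 1q, which had the largest share of the 5, the interval of 0.276% to 0.681% held the share of the table. The stretch from 146.6 to 151.6 Mb of 1q held 5 of the 21 and the innermost window 6. On 1p, with 2137 peaks, there were 3, or 0.140% (0.0290 to 0.410).

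The strongest peak of the arms was on 20q at chr20:46523454-46524664. It was 1211 bp long and had 36 ChIP reads at its summit (exact 95% Poisson interval 25.2 to 49.8), or 31.1 after scaling, over a background of 5. Its −log10 p was 15.2, the rank 6 of the table. The second on 20q was chr20:47131735-47132463, with 28 reads over a background of 6 and a −log10 p of 8.23. The third, chr20:42371507-42371806, had 10 reads and a −log10 p of 6.91 at the genome-wide background. The first 2 lie in the densest window of the arm, and their summits were covered by 5 and 6 input fragments.

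On 8q, the peak chr8:86763484-86763751 led with 23 reads over a background of 4 and a −log10 p of 7.99. It belonged to a run of 8 peaks between the summits 86557697 and 86829468, chosen after its values were seen. All 8 had between 10 and 24 reads and a background between 3.20 and 11.0, and 7 of the 8 peaks on 8q with a background of at least 4 lay in this run. The other named peaks of 8q, chr8:71656632-71657008 and chr8:124206832-124207100, had 9 reads each at the genome-wide background and a −log10 p of 5.84.

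On 1q, the peaks with the largest −log10 p were chr1:236466993-236467249, with 11 reads over 0.805 and a −log10 p of 7.82, chr1:150011208-150011789, with 10 reads over 0.773 and 6.87, and chr1:199306427-199306805, with 10 reads over 0.805 and 6.72. All 3 had backgrounds close to the genome-wide level. Peaks with a high background lay elsewhere on this arm, many of them near the stretch without summits. Between 142796947 and 143537457, a run chosen after its values were seen, were 50 peaks with 3 to 24 reads. Their median background was 1.29. Of the 50, 10 had a background of at least 4, out of 21 such peaks on the arm. The highest, chr1:143279861-143280033, had 24 reads over a background of 10.0 and a −log10 p of 2.80.

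The leading peaks of 6p were chr6:11081708-11081972 and chr6:36118987-36119414, both with 10 reads at the genome-wide background and a −log10 p of 6.91, and chr6:19784453-19784678, with 10 reads and 6.07. On 17q they were chr17:37979135-37979413, with 10 reads and a −log10 p of 6.72, chr17:62599494-62599670, with 10 reads and 6.07, and chr17:28835917-28836233, with 9 reads and 5.84. These leading peaks of 6p and 17q differ by at most 1 read, less than the counting error of 10 reads (4.80 to 18.4), so their order carries little. The most reads on 17q, 51 and 50, were at chr17:41400756-41401121 and chr17:41381721-41381943, over backgrounds of 24.0 and 27.0, with a −log10 p of 4.08 and 2.79.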

How the data were processed

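The members and windows were chosen with earlier results of these data known. Per the submitters' processing notes, CASAVA 1.4, Bowtie2 2.0, Picard 2.19.0 and MACS2 2.1.2 were used with hg19. The authors called peaks on the ChIP library against the input with a p cutoff of 0.05, a fragment length of 161 bp, 1 tag kept per position and the mouse preset of 1870000000 bp as genome size. This preset sets the genome-wide background at 0.763 reads. The human preset of 2700000000 bp would set it at 0.528, and peaks could not be called again under it. In the deposited table, the pileup is a signal scaled to the input library, and the fold enrichment is a ratio with 1 added to both terms. The −log10 p and −log10 q are the authors' values. The header says that q was not calculated, yet the column holds values.

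ChIP reads were the pileup divided by 0.864, whole within 0.0051 for 100% of the peaks. The background followed from the reads and the fold enrichment, and the p-value recomputed from both was within 5.26e-05 of the listed −log10 p. The recovery step was also run on simulated peaks written with the same formulas, which checks the code and not the formulas. A 10 kb count that is a multiple of 10 cannot be told from a 1 kb count and was counted as 1 kb. Intervals (95%) were exact Poisson, exact binomial and exact conditional (ratios), and Newcombe's for differences of shares, and neighbouring peaks are not independent. The regions named were the 3 peaks with the largest −log10 p and the 3 densest and 3 sparsest windows of each arm. No test between groups or arms was run. Values were computed in Python 3.11.15 with pandas 2.3.3, numpy 2.4.6 and scipy 1.17.1, and plots were drawn with matplotlib 3.10.9.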

Additional observations from a re-analysis of the deposited data

How the results depend on the processing

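The share of peaks with raised background, arm against other arm, stayed within its interval under all 20 alternatives. The settings were −log10 p of at least 2, a background of at least 1 read, and summits within 10 kb counted once. The last setting left out 3 Mb at each end of both arms, inner and outer. For 17q against 17p, whose interval holds 0, the sign turned without these ends (1.84 points). For the density ratio, lengths that kept the summit-free stretches took the place of the background of at least 1 read. The ratio stayed within its interval under 15 of 20. With summits within 10 kb counted once, which by construction counts dense stretches less, it was 1.78 for 1q over 1p, 1.63 for 6p over 6q and 1.33 for 20q over 20p. Without 3 Mb at each end of both arms it was 1.08 for 8q over 8p and 2.03 for 20q over 20p. The direction for 8q thus depended on the arm ends. Where only peaks with −log10 p at or above 2 were kept, median reads rose to 5 on 1p and on 8p. The densest window over the median window depended on the window size. It was 1.87 on 1q, 2.27 on 8q, 1.28 on 17q and 1.15 on 20q with 5 Mb. With 2 Mb it was 2.96 on 8q, 1.61 on 17q and 1.67 on 20q, and with 10 Mb 1.54 on 1q, 1.73 on 8q and 1.09 on 17q. Most peaks rest on 3 to 6 reads, which limits any statement on a single peak. No paired analysis was possible because ChIP and input came as 1 library each.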
